A study of Mus musculus with 2 samples.

Results

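The metallothionein genes *Mt1*, *Mt2* and *Mt3* were followed through the cell types of the mouse neurohypophysis (NH), the posterior lobe of the pituitary. They were taken by their gene symbols, and all 3 were present among the 27998 genes of both count matrices and among the 15025 genes of the deposited table of cluster means. NH tissue was dissected from C57BL/6 males at 3 months of age, with no treatment or transgene named, and 2 pools of 5 mice each were dissociated and sequenced as single cells in droplets. The dissected tissue also carried some of the adjoining intermediate lobe (IL). The 2 pools were replicates of one condition, so that cell types were compared and no treatment was. The mice of a pool cannot be told apart, and single cells were not treated as replicates.

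Metallothioneins are small cysteine-rich proteins of the cytoplasm that bind zinc and copper and buffer their free levels. *Mt1* and *Mt2* are made in most tissues and are induced by zinc, cadmium, glucocorticoids and oxidative stress, the metals acting through the zinc-sensing transcription factor Mtf1. *Mt3*, first described as growth inhibitory factor, is found mainly in the nervous system and responds little to metals. *Mt4*, the fourth member of the family, belongs to stratified epithelia. In the brain, astrocytes are the best known site of metallothionein expression, and pituicytes, which enwrap the neurosecretory axon terminals of the NH, are related to astrocytes.

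The genes lie in a row on the plus strand of chromosome 8. On the GRCm38 build with the GENCODE M21 annotation, *Mt3* (ENSMUSG00000031760) spans chr8:94152607-94154146, *Mt2* (ENSMUSG00000031762) chr8:94172664-94173568 and *Mt1* (ENSMUSG00000031765) chr8:94179082-94180327. *Mt1* and *Mt2* are 5513 bases apart, and *Mt3* ends 18517 bases before *Mt2*. The first-listed transcript of each gene has 3 exons, with 549 spliced bases for *Mt1*, 511 for *Mt2* and 536 for *Mt3*. None of the 58-base stretches in the last 300 bases of these genes' transcripts, the part that a 3′ tag is read from, was found in the transcript of another gene, so that the members could be counted apart. The antisense gene *Gm45774* overlaps *Mt2*, and whether reads were counted by strand is not given in the sources used here.

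The sequences upstream of the 3 genes are shown because Mtf1 is known to act on *Mt1* and *Mt2* through metal response elements near their starts. The core of the metal response element was searched as TGCACNC and TGCGCNC on both strands, and no other motif was searched. Each RefSeq window gives 240 bases upstream of both the RefSeq and the GENCODE start on GRCm38.p6, plus strand, 5′ to 3′, with matches on either strand in capitals. The windows are chr8:94178839-94179078 for *Mt1*, chr8:94172368-94172607 for *Mt2* and chr8:94152357-94152596 for *Mt3*.
Mt1 upstream: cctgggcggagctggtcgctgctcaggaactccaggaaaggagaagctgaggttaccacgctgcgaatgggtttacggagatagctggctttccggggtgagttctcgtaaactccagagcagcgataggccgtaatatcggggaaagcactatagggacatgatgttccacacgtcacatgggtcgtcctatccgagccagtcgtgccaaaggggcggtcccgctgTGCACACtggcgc
Mt2 upstream: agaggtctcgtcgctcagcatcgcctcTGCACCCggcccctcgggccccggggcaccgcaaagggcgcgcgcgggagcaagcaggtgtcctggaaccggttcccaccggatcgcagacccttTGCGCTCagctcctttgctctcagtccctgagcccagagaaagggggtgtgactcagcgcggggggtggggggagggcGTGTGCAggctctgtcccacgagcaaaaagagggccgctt
Mt3 upstream: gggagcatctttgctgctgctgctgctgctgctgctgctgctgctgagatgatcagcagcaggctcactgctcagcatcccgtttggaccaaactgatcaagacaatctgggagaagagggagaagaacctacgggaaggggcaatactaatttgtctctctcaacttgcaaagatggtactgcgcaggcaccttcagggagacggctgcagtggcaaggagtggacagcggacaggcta
The upstream window of *Mt2* held 3 cores, that of *Mt1* held 1 and that of *Mt3* held 0. These counts depend on the annotated starts. Where transcription starts in these cells was not examined, so that cores past an annotated start may still lie upstream of the start in use.

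Further cores stood at or just past the RefSeq starts. Short stretches are shown to place them, from chr8:94179088-94179117 for *Mt1*, chr8:94172612-94172639 for *Mt2* and chr8:94152624-94152651 for *Mt3*.
Mt1 at its start: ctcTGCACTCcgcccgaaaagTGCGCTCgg
Mt2 at its start: aattcgggtcGTGCGCAggcccaggggc
Mt3 after its start: gggacagcagTGCACACacacggagagc
Over the whole RefSeq window of 300 bases, from 250 before the start to 50 after it, *Mt2* held 4 cores, *Mt1* 3 and *Mt3* 1. Of 32851 such windows of mouse genes, 25.7% held at least 1 core, 1.97% at least 3 and 0.517% at least 4. In the first 180 bases of the first-listed GENCODE transcript, *Mt1* held 4 cores and *Mt2* and *Mt3* 3 each, numbers reached by 0.0593% and 0.362% of 134930 transcripts. A match is a run of letters and was not tested as a site.

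The cells kept numbered 528, with 273 in pool 1 and 255 in pool 2, and no barcode was shared between the pools. They held 699676 and 726706 UMIs (unique molecular identifiers, each marking 1 captured mRNA molecule), with medians of 2050.0 and 2330.0 UMIs per cell. The authors' 11 clusters, merged into 7 cell types, were rebuilt from the deposited cluster means without using the 3 genes, and the means of the 3 genes over the recovered cells differed from the deposited ones by at most 0.0283 UMIs per 10000. Each type carried its own defining markers, *Scn7a*, *Col25a1*, *Rax*, *Gja1* and *Vegfa* in pituicytes summing to 4740 and 5133 CPM, the UMIs of a gene per 1e6 UMIs, in pools 1 and 2. In pools 1 and 2, 5 hormone genes of the anterior lobe summed to 188 and 9369 CPM in IL cells. In epithelial-like cells they summed to 35360 and 2707 CPM. Their part in the metallothionein values was not tested. Some small groups were mixed. Of the 7 epithelial-like cells of pool 1, 2 carried 310 and 359 UMIs of *Gh*, the growth hormone of the anterior lobe, and the 11 vascular and leptomeningeal cells (VLMC) included 2 with 39 and 75 UMIs of *Mbp*, which encodes myelin basic protein of oligodendrocytes.

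Metallothionein mRNA was abundant in 3 of the 7 types. Measured *Mt1* and *Mt2* were highest in epithelial-like cells and next in pituicytes, although for *Mt1* these types were not called apart and 1 cell set the value of pool 1, without which epithelial-like cells stood at 1517 CPM against 2202 in pituicytes. *Mt3* was highest in pituicytes, and IL cells held all 3 at a measured level below that of pituicytes, although these types were not called apart for any member. Macrophage/microglia held *Mt1* with little *Mt2* and almost no *Mt3*, and T-cell like cells were nearly free of all 3. By mean CPM, *Mt1* ranked 16 among the 10053 genes detected in epithelial-like cells, 37 among 13331 in pituicytes and 58 among 13716 in IL cells. Levels are given as CPM of the UMIs summed over the cells of a type in a pool, with means ± SD over the 2 pools. A 3′ tag is counted once per molecule whatever the length of the mRNA, so that no length was divided out.

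*Mt1*, the most abundant of the 3, stood at 2202 CPM in pool 1 and 2403 in pool 2 in pituicytes (2302 ± 142, SD, n = 2 pools). IL cells followed at 1586 and 1170 CPM (1378 ± 294). Epithelial-like cells held 2588 and 5161 CPM (3874 ± 1819), from 7 and 16 cells. These 3 types lay above every other type in both pools, and IL cells lay below pituicytes in both. *Mt1* was intermediate in macrophage/microglia, at 654 and 788 CPM, and in VLMC, at 707 and 596 CPM from 6 and 9 UMIs. T-cell like cells held 54.6 and 68.8 CPM, from 3 and 2 UMIs. Vascular endothelia held 176 CPM in pool 1, from 2 UMIs, and 0 UMIs in pool 2, which allows up to 240 CPM (3 counts).

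*Mt2*, which differs little from *Mt1* in its protein, was present at 874 and 967 CPM in pituicytes (920 ± 65.3). In IL cells it stood at 537 and 589 CPM (563 ± 36.9), below pituicytes in both pools. Epithelial-like cells held 2795 and 2859 CPM (2827 ± 45.3), above every other type in both pools. The closeness of these last values rests on 1 cell of pool 1 with 7452 UMIs, which held 41 of the 54 *Mt2* UMIs and 32 of the 50 *Mt1* UMIs of its group. Without it, epithelial-like cells of pool 1 stood at 1096 CPM of *Mt2* and 1517 CPM of *Mt1*. *Mt2* stood at 45.1 and 167 CPM in macrophage/microglia, where 1 cell of pool 2 held 13 of 18 UMIs and the level without it was 48.1 CPM. That cell also held markers of epithelial-like cells, with 4 UMIs of *Krt18*, 3 of *Lcn2* and 0 of *Cyp2f2*, and may be mixed. The other types held 0 or 1 UMI of *Mt2* in each pool.

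*Mt3*, the member of nervous tissue, was highest in pituicytes, at 543 and 647 CPM (595 ± 73.4). IL cells held 395 and 265 CPM (330 ± 92.0), below pituicytes in both pools. Both stood well above the remaining types except VLMC, whose 331 CPM in pool 2 came from 5 UMIs of 1 cell, with 0 UMIs in pool 1. That cell held 6 UMIs of *Pdgfra* and 0 of *Lum*. Epithelial-like cells, the richest in the other members, held 51.8 and 84.6 CPM of *Mt3*, from 1 and 5 UMIs. Macrophage/microglia held 1 UMI in each pool and T-cell like cells 1 and 0, while vascular endothelia held 0 in both pools, which over both allows up to 126 CPM. Of the 483 *Mt3* UMIs of all cells, 60.5% were in pituicytes and 36.7% in IL cells, which made 37.1% and 28.03% of the cells.

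**Figure D1:**
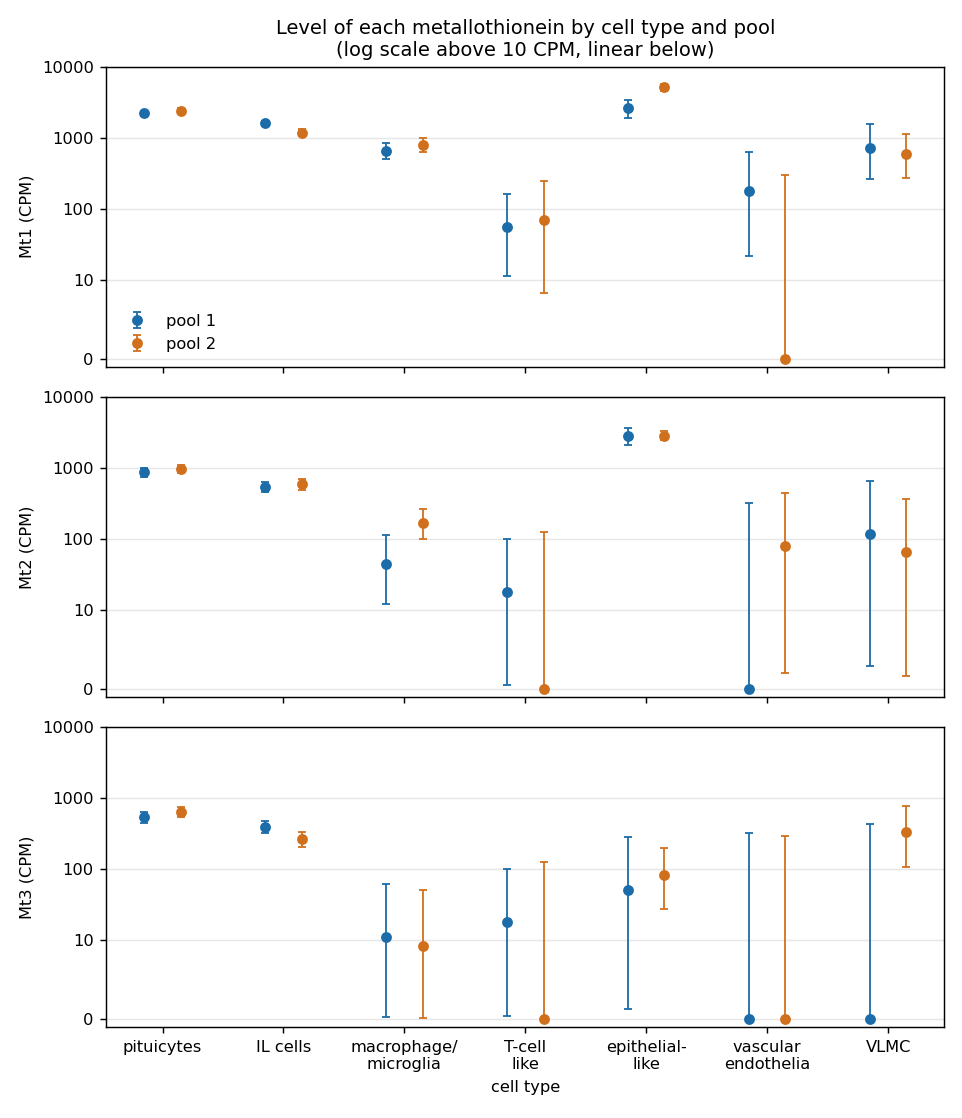
Each panel plots 1 gene as CPM of the summed UMIs (log scale above 10 CPM, linear below) for the 7 cell types, with 1 point per pool and bars for the exact Poisson 95% interval of the count. *Mt1* stands at 2588 and 5161 CPM in the 2 pools of epithelial-like cells and at 2202 and 2403 CPM in pituicytes, and *Mt3* is highest in pituicytes, at 543 and 647 CPM.

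The sums of the 7 types in the 2 pools were tested with edgeR's quasi-likelihood test and Benjamini-Hochberg adjustment over 4510 genes, each type against the mean of the other 6, and a gene was called at an adjusted p of at most 0.05. In pituicytes 3 of 3 members were called higher, where 20.9% of all genes were called higher. The log2 fold change was 2.53 for *Mt1* (SE 0.28, edgeR adjusted p = 2.06e-17), 2.97 for *Mt2* (SE 0.34, edgeR adjusted p = 2.31e-16) and 4.37 for *Mt3* (SE 0.41, edgeR adjusted p = 4e-25). Of the 3 members, 2 were called higher in epithelial-like cells, where 8.43% of all genes were higher and 0.222% lower. Their log2 fold changes were 3.07 for *Mt1* (edgeR adjusted p = 3.74e-24) and 4.45 for *Mt2* (edgeR adjusted p = 7.87e-39). *Mt3* was not called there, with 0.58 (SE 0.83, edgeR adjusted p = 0.821). The IL cells had 3 of 3 called higher, where 21.8% of all genes were higher and 2.79% lower, at 1.81, 2.27 and 3.53 for *Mt1*, *Mt2* and *Mt3*.

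These folds carry limits. The median gene also stood above 0 in the contrasts of the larger types, at 0.59 in pituicytes, and relative to it the members stood at 1.94, 2.37 and 3.78. In epithelial-like cells, with a median of 0.45, *Mt1* stood at 2.63 relative to it. Of the calls in pituicytes 93.8% were higher, 87.2% with library size alone and 70.9% with DESeq2, and in IL cells the shares were 88.6%, 74.4% and 53.8%. With single pools the pituicyte values were 3.31 and 2.53 for *Mt1*, 3.28 and 3.79 for *Mt2* and 4.91 and 5.34 for *Mt3* (without pool 1 and without pool 2), and the epithelial-like values 4.41 and 1.86 for *Mt1*. In IL cells they were 2.25 and 2.18 for *Mt1*, and 3.17 for *Mt2* and 5.01 for *Mt3* without pool 2. The fitted folds of *Mt3* depend on edgeR's prior count, since several sums held 0 UMIs.

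T-cell like cells and vascular endothelia were the low end. In T-cell like cells 2 of 3 members were called lower, where 2.99% of all genes were lower and 10.8% higher, *Mt1* at -3.63 (edgeR adjusted p = 2.31e-07) and *Mt2* at -4.23 (edgeR adjusted p = 0.000726). *Mt2* lost this call when the 2 VLMC with oligodendrocyte markers were left out and when only cells under 10% mitochondrial share were used (edgeR adjusted p = 0.9999 in both). Without those 2 cells VLMC, which are among the other types, held 0 UMIs of *Mt2* in both pools. Vascular endothelia had 1 of 3 called lower, *Mt1* at -4.04 (edgeR adjusted p = 2.03e-06), where 0.732% of all genes were lower and 3.57% higher. That value rests on 2 UMIs and was -9.43 without pool 1. In T-cell like cells *Mt1* was -2.73 without pool 1, and *Mt2*, with 1 UMI, was -7.94 without pool 1 and -2.61 without pool 2. *Mt3* in T-cell like cells, not called at -2.09, was called lower after re-clustering (-3.53, edgeR adjusted p = 0.0128). There the other types were pituicytes, IL cells and macrophage/microglia alone, so that the comparison itself had changed. Of the calls over all genes in T-cell like cells 78.4% were higher, 65.7% with library size alone and 60.1% with DESeq2, and in vascular endothelia 82.99%, 97.2% and 96.2%.

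In macrophage/microglia and VLMC 0 of 3 members were called, where 19.8% and 2.88% of all genes were called higher and 1.24% and 2.22% lower. *Mt1* in macrophage/microglia stood at 0.82 (unadjusted p = 0.0144 and adjusted p = 0.0645 in edgeR). It was called with the expected free RNA subtracted, at 1.27 (edgeR adjusted p = 0.013), and without the 2 VLMC with oligodendrocyte markers, at 0.94 (edgeR adjusted p = 0.0241). With DESeq2 it stood at 0.41, with library size alone at 0.26 and without pool 1 at 1.81. No other member had an unadjusted p under 0.05 in these types. *Mt3* in macrophage/microglia was called lower after re-clustering (-3.46, edgeR adjusted p = 0.0165), against pituicytes, IL cells and T-cell like cells alone. *Mt2* in VLMC was called lower without the 2 VLMC with oligodendrocyte markers (-7.27, edgeR adjusted p = 0.0427). The remaining VLMC held 0 UMIs of *Mt2* in both pools, in sums of 6143 and 9149 UMIs. The size of that fold therefore depends on edgeR's prior count and does not measure a decrease. Of the calls over all genes in macrophage/microglia 94.1% were higher, 78.8% with library size alone and 79.4% with DESeq2. In VLMC the shares were 56.5%, 90.2% and 86.5%.

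Types next to each other in level were also compared directly. Between pituicytes and IL cells 0 of 3 members were called, where 11.7% of all genes were higher and 8.96% lower in pituicytes. The log2 differences of pituicytes over IL cells were 0.62 for *Mt1* (SE 0.35, edgeR adjusted p = 0.229), 0.60 for *Mt2* (SE 0.33, edgeR adjusted p = 0.232) and 0.72 for *Mt3* (SE 0.32, edgeR adjusted p = 0.094), with an unadjusted p of 0.0227 for *Mt3*. All 3 were higher in pituicytes in both pools. In simulated counts this comparison recovered 6% of 2-fold changes over genes of all levels, and recovery at the levels of the members was not measured. The lack of a call does not show equal levels. *Mt3* was called with library size alone (edgeR adjusted p = 0.0403) and with the cells clustered anew (edgeR adjusted p = 0.00795). Without pool 1 the differences were 0.91 for *Mt1* and 1.16 for *Mt3*, and without pool 2 they were 0.30 and 0.29. By counts of both pools, pituicytes held 1.66 times the *Mt1*, 1.64 times the *Mt2* and 1.79 times the *Mt3* CPM of IL cells.

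Between pituicytes and epithelial-like cells the members went opposite ways. *Mt3* was called higher in pituicytes, at a log2 difference of 3.25 (SE 0.56, edgeR adjusted p = 3.65e-07), where 4.1% of all genes were higher. *Mt2* was called lower in pituicytes, at -1.27 (SE 0.34, edgeR adjusted p = 0.0043), where 4.43% were lower. This call was lost without the 1 epithelial-like cell of pool 1 (-0.88, edgeR adjusted p = 0.139), with no filter on low counts (edgeR adjusted p = 0.146) and in cells under 10% mitochondrial share (-0.40, edgeR adjusted p = 0.791). Under 10% there were 11 and 38 pituicytes and 4 and 8 epithelial-like cells in pools 1 and 2. That limit also removed the 1 epithelial-like cell of pool 1, at 14.9%. *Mt1* did not differ beyond the spread, at -0.47 (SE 0.35, edgeR adjusted p = 0.507). Of the calls over all genes in this comparison 48.1% were higher in pituicytes, 31.7% with library size alone and 22.97% with DESeq2, and the 3 members kept their direction under both. By counts of both pools, pituicytes held 7.80 times the *Mt3* CPM of epithelial-like cells (95% counting interval 3.54 to 21.4) and 0.324 times their *Mt2* CPM (0.276 to 0.382).

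Between IL cells and epithelial-like cells 3 of 3 members were called, where 3.39% of all genes were higher and 5.72% lower in IL cells. *Mt1* was lower in IL cells by a log2 difference of -1.08 (SE 0.35, edgeR adjusted p = 0.0284) and *Mt2* by -1.86 (SE 0.35, edgeR adjusted p = 5.88e-06). *Mt3* was higher in IL cells, at 2.53 (SE 0.59, edgeR adjusted p = 0.000504). The *Mt1* call was lost without the 1 epithelial-like cell of pool 1 (-0.91, edgeR adjusted p = 0.159), with no filter on low counts (edgeR adjusted p = 0.208), with free RNA subtracted (edgeR adjusted p = 0.0596) and under 10% mitochondrial share (edgeR adjusted p = 0.425). Its value was -1.85 without pool 1 and 0.28 without pool 2, and in pool 1 the epithelial-like cells without that cell stood at 1517 CPM against 1586 in IL cells. Under 10% mitochondrial share *Mt2* and *Mt3* lost their calls too (-0.75, edgeR adjusted p = 0.545, and 2.50, edgeR adjusted p = 0.0673), and with DESeq2 *Mt3* did (adjusted p = 0.0857). The limit of 10% left 4 and 8 epithelial-like cells in pools 1 and 2, without the 1 cell of pool 1. *Mt3* stood at 3.86 without pool 2. Of the calls over all genes 37.2% were higher in IL cells, 18.98% with library size alone and 12.4% with DESeq2. By counts of both pools, epithelial-like cells held 3.26 times the *Mt1* and 5.07 times the *Mt2* CPM of IL cells.

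Pituicytes stood above macrophage/microglia for 3 of 3 members, where 14.7% of all genes were higher and 16% lower, and the 3 differences were of unequal size. The log2 difference was 1.47 for *Mt1* (SE 0.37, edgeR adjusted p = 0.000383), 2.84 for *Mt2* (SE 0.43, edgeR adjusted p = 6.84e-10) and 5.52 for *Mt3* (SE 0.64, edgeR adjusted p = 4.13e-16). By counts, the ratio of pituicytes to macrophage/microglia was 3.17 for *Mt1* (95% counting interval 2.66 to 3.80), 8.24 for *Mt2* (5.37 to 13.3) and 58.7 for *Mt3* (16.1 to 487, from 2 UMIs in macrophage/microglia). Without the 1 macrophage/microglia cell with most *Mt2* UMIs, the *Mt2* ratio was 19.7 (10.3 to 43.5, from 9 UMIs), an interval that overlapped that of *Mt3*, and the log2 difference was 4.07. The *Mt2* difference was 2.21 without pool 1 and 4.09 without pool 2. *Mt1* lost its call in cells under 10% mitochondrial share (1.23, edgeR adjusted p = 0.0651), a limit that left 11 of 108 pituicytes in pool 1 and 38 of 88 in pool 2. Of the calls over all genes 48.0% were higher in pituicytes, and 58.5% with library size alone. Against vascular endothelia, with 0 *Mt3* UMIs, pituicytes held at least 4.74-fold more *Mt3* CPM over both pools. Between IL cells and macrophage/microglia *Mt1* was not called, at a log2 difference of 0.85 (edgeR adjusted p = 0.0588). With the pool as a replicate block it was called higher in IL cells, at 0.88 (edgeR adjusted p = 0.0452). It was also called with library size alone (1.01), with DESeq2 (1.02), after re-clustering (0.91) and without the 1 macrophage/microglia cell (0.999), with adjusted p from 0.00777 to 0.0459, and it stood at 0.38 without pool 1 and 1.30 without pool 2. *Mt2* and *Mt3* were called higher in IL cells, where 14.7% of all genes were higher and 17.9% lower, at 2.24 and 4.80. The *Mt2* difference was 3.48 without the 1 macrophage/microglia cell and 3.57 without pool 2.

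The make-up of the metallothionein mRNA differed between types. Of the *Mt1* and *Mt3* UMIs together, *Mt3* made 19.8% in pool 1 and 21.2% in pool 2 in pituicytes (exact 95% intervals 16.8 to 23.1% and 18.4 to 24.3%). In IL cells the share was 19.9% and 18.4%, within the intervals of pituicytes. It was 1.96% and 1.61% in epithelial-like cells (0.0496 to 10.5% and 0.526 to 3.72%) and 1.70% and 1.16% in macrophage/microglia (0.0429 to 9.09% and 0.0294 to 6.31%). The intervals of the first 2 types and those of the other 2 did not overlap.

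Of the *Mt1* and *Mt2* UMIs together, *Mt2* made 28.4% and 28.7% in pituicytes and 25.3% and 33.5% in IL cells. Over both pools the share was 28.6% and 28.8% in these types. In epithelial-like cells it was 51.9% in pool 1 and 35.7% in pool 2, and the pool 1 value was 41.9% (24.6 to 60.9%) without the cell that held most of its UMIs. Over both pools of epithelial-like cells it was 38.6% (34.6 to 42.7%), and 36.0% (31.9 to 40.4%) without that cell, both above the interval of pituicytes (26.3 to 30.9%). Macrophage/microglia had 13.3% over both pools (8.55 to 19.5%), and 6.67% (3.09 to 12.3%) without the 1 cell with most *Mt2*. UMIs of 1 cell are not independent draws, so that these intervals cover counting error only.

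**Figure D2:**
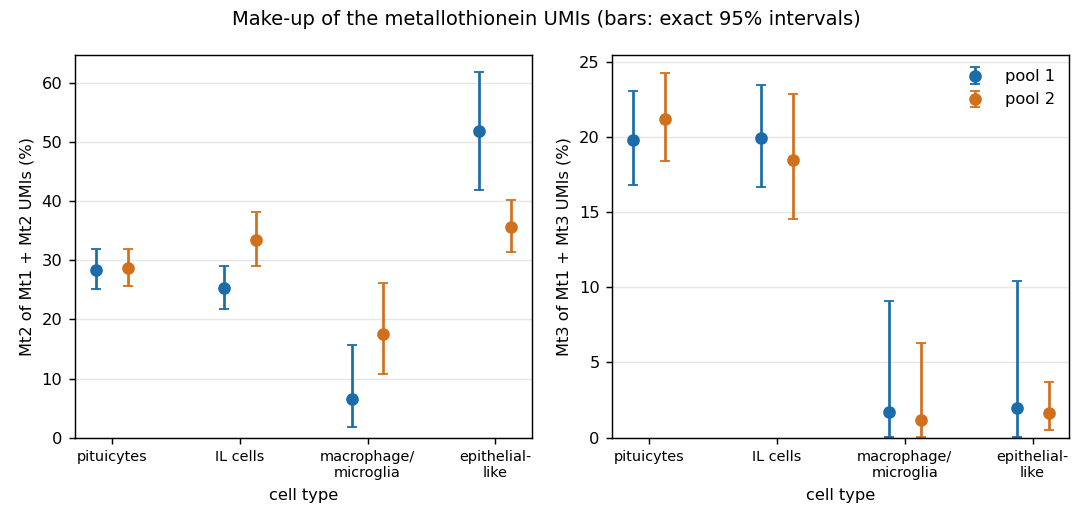
Share of *Mt2* among *Mt1* and *Mt2* UMIs (left) and of *Mt3* among *Mt1* and *Mt3* UMIs (right), in percent, for the 4 types with over 50 *Mt1* UMIs, with 1 point per pool and exact 95% binomial intervals. The *Mt3* share lies between 18.4% and 21.2% in pituicytes and IL cells and between 1.16% and 1.96% in macrophage/microglia and epithelial-like cells.

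Single cells showed how widely the genes were spread within a type. A UMI of *Mt1* was found in 23 of 23 epithelial-like cells, in 88.8% of pituicytes (exact 95% interval 83.5 to 92.8%), in 82.4% of IL cells (75.3 to 88.2%), in 54.7% of macrophage/microglia and in 9.52% of T-cell like cells. *Mt2* was found in 95.7% of epithelial-like cells, 68.9% of pituicytes, 56.1% of IL cells and 6.32% of macrophage/microglia. For *Mt3* the shares were 64.3% in pituicytes, 56.8% in IL cells, 13.04% in epithelial-like cells and 2.11% in macrophage/microglia. T-cell like cells, taken as the low reference, held a UMI of *Mt2* or of *Mt3* in 2.38% each, 1 of 42 cells (exact 95% interval 0.0603 to 12.6%). The *Mt3* share of macrophage/microglia lay within this interval. Their *Mt2* share did too, so that the interval cannot tell background from low expression. Median depth was 2056 UMIs per pituicyte, 3249 per IL cell, 2324 per epithelial-like cell, 1739 per macrophage/microglia cell and 1596 per T-cell like cell.

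With each cell thinned to 1000 UMIs, no cell being shallower, the shares were 76.5% of pituicytes, 62.2% of IL cells and 35.8% of macrophage/microglia for *Mt1*, and 23 of 23 epithelial-like cells kept a UMI. *Mt2* then remained in 49.0% of pituicytes, 28.4% of IL cells and 82.6% of epithelial-like cells. For *Mt3* the thinned shares were 40.3% of pituicytes and 28.4% of IL cells. The gap of pituicytes over IL cells was larger at equal depth for each of the 3 genes than before thinning, where IL cells were the deeper. All 3 genes were found together in 90 of 196 pituicytes (45.9%), in 50 of 148 IL cells (33.8%) and in 3 of 23 epithelial-like cells, and in 0 cells of the other 4 types. None of the 3 was found in 37 of 42 T-cell like cells and in 6 of 196 pituicytes.

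Levels varied widely among cells of a type. In UMIs per 10000, the median pituicyte held 15.2 of *Mt1* in pool 1 and 19.8 in pool 2, with SDs over cells of 20.6 and 17.4 and highest cells of 112 and 98.3. The median epithelial-like cell held 16.9 and 42.3, with a range of 6.69 to 42.9 over 7 cells and of 12.7 to 90.7 over 16 cells, so that no epithelial-like cell was at 0. The 20 highest of the 196 pituicytes held 36.0% of the *Mt1* UMIs, 40.4% of the *Mt2* UMIs and 42.5% of the *Mt3* UMIs of pituicytes. High cells of one member were only loosely high cells of another. Across cells the Pearson correlation of log2 values of *Mt1* and *Mt2* was 0.335 in 196 pituicytes and 0.367 in 148 IL cells, and that of *Mt2* and *Mt3* 0.0484 and 0.116, points that share library and depth and counts that are sparse.

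**Figure D3:**
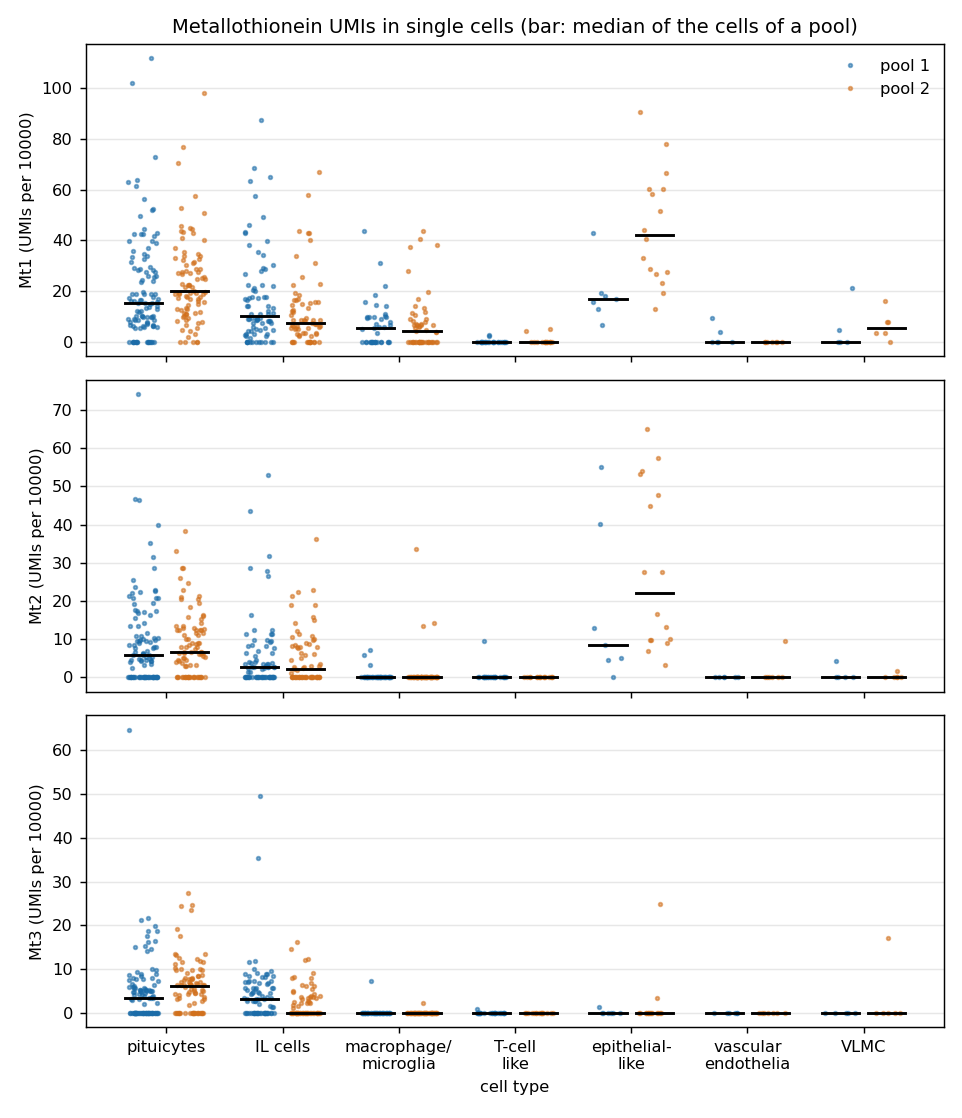
Each point is 1 cell, placed by its UMIs of *Mt1*, *Mt2* or *Mt3* per 10000 UMIs (linear axes), for the 7 types and the 2 pools, with a bar at the median of the cells. Epithelial-like cells have no cell at 0 of *Mt1*, with medians of 16.9 and 42.3, and the *Mt3* points above 0 are nearly all in pituicytes and IL cells.

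The authors had split pituicytes into 3 clusters, IL cells into 2 and macrophage/microglia into 2. Since these clusters were built on the same cells, their values are given without a test. In pool 1 *Mt1* was alike in the pituicyte clusters, at 2243 CPM in cluster a, 2155 in b and 2202 in c. In pool 2 it stood at 3537 CPM in cluster b (exact Poisson 95% interval 2966 to 4186, from 19 cells) against 2216 in a (1986 to 2465) and 2166 in c (1818 to 2562). However, 1 cell held 54 of the 135 *Mt1* UMIs of cluster b in pool 2, and the interval does not cover the spread between cells. By CPM, *Mt3* was lowest in cluster a in both pools, at 463 and 479 CPM, against 594 and 707 in b and 567 and 1019 in c. In pool 1 this order was not that of the median cell, which held 4.715 UMIs per 10000 in a, 0 in b and 3.54 in c. There 1 cell held 15 of the 35 *Mt3* UMIs of cluster b. Of the *Mt1* and *Mt3* UMIs, *Mt3* made 17.6% in cluster a and 25.1% in c. Clusters a and c also differed in median mitochondrial share, at 11.4% and 9.09% in a and 21.3% and 18.0% in c, and its part in the *Mt3* values was not tested.

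The 2 IL clusters, which the authors' table labels as neural progenitors, differed by less than the spread of the pools, with *Mt1* at 1366 ± 363 and 1404 ± 206 CPM, *Mt2* at 565 ± 43.6 and 560 ± 28.3 CPM and *Mt3* at 348 ± 99.6 and 309 ± 89.0 CPM. In both clusters *Mt1* and *Mt3* were lower in pool 2 than in pool 1. The macrophage/microglia clusters differed more, as *Mt1* stood at 879 and 917 CPM in cluster a and at 378 and 334 CPM in cluster b, with no overlap between pools. *Mt2* stood at 20.4 and 214 CPM in cluster a and at 75.5 and 0 CPM in b, from at most 18 UMIs. The macrophage/microglia cell with most *Mt2* UMIs, which may be mixed, lay in cluster a of pool 2. It held 17 of the 77 *Mt1* UMIs and 13 of the 18 *Mt2* UMIs of that cluster and pool.

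**Figure D4:**
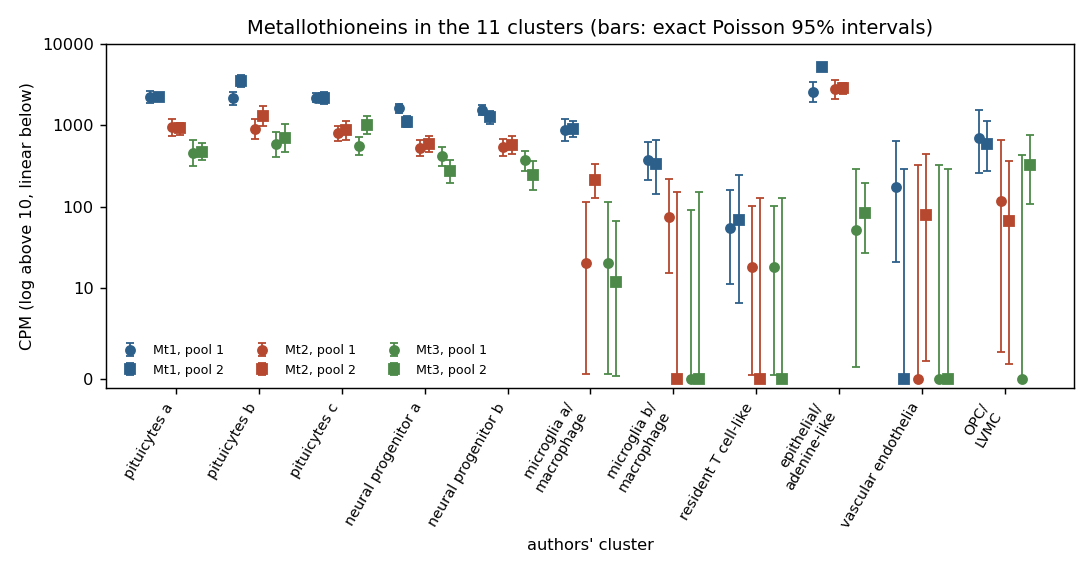
CPM of the 3 genes (log scale above 10, linear below) in the 11 clusters of the authors, with circles for pool 1, squares for pool 2 and exact Poisson 95% intervals. The 3 pituicyte clusters and the 2 clusters labelled neural progenitor hold all 3 genes, and *Mt1* in the macrophage/microglia clusters is 879 and 917 CPM in a against 378 and 334 CPM in b.

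RNA set free from broken cells enters droplets and adds UMIs to cells that do not make it. Metallothionein RNA was part of it. In the 157608 barcodes of pool 1 with 1 to 50 UMIs, *Mt1* stood at 914 CPM, *Mt2* at 390 and *Mt3* at 335. The *Pomc* found in immune cells, a prohormone gene of IL cells, put free RNA at an estimated 6.10% of UMIs for pool 1 and 5.19% for pool 2. In pituicytes this gives 13.1 of 519 *Mt1* UMIs, 5.61 of 206 *Mt2* UMIs and 4.82 of 128 *Mt3* UMIs in pool 1, and the share expected from free RNA was at most 3.77% for any member in either pool. In IL cells it was at most 6.58% and for *Mt1* and *Mt2* of epithelial-like cells at most 2.16%.

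Counts of T-cell like cells lay at this level. Those of pool 1 held 3 *Mt1* UMIs where 3.06 were expected, and those of pool 2 held 2 UMIs where 1.38 were expected. Their *Mt2* and *Mt3* stood at 1 UMI each in pool 1, where 1.31 and 1.12 were expected. In macrophage/microglia *Mt3* was also at the expected level, at 1 and 1 UMIs with 1.81 and 1.88 expected. *Mt1* was not, at 58 and 85 UMIs with 4.95 and 5.12 expected. In epithelial-like cells *Mt3* stood at 1 and 5 UMIs with 0.395 and 1.03 expected. The estimate for pool 2 uses the profile of pool 1, as low barcodes were used from pool 1 alone.

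**Figure D5:**
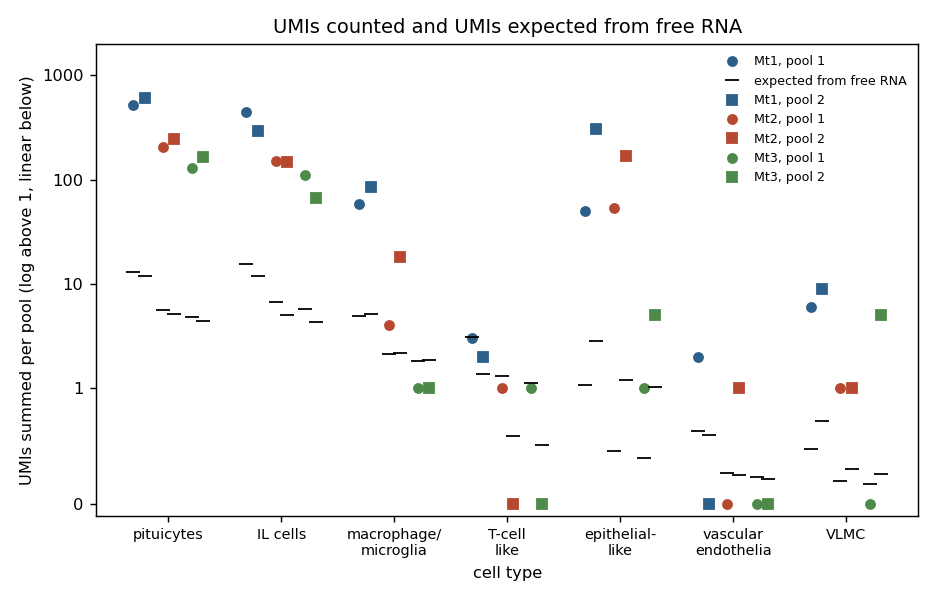
UMIs of each gene summed per type and pool (circles for pool 1, squares for pool 2; log scale above 1, linear below), with a dash for the number expected from free RNA. In T-cell like cells the counts lie at the dashes, as with 3 *Mt1* UMIs counted and 3.06 expected in pool 1, while *Mt1* in macrophage/microglia, at 58 and 85 UMIs, lies far above 4.95 and 5.12.

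*Mt4* was at 0 UMIs in the 528 cells, which held 1426382 UMIs, and at 0 in the low barcodes of pool 1. The kept cells held 2386 UMIs of *Mt1*, 998 of *Mt2* and 483 of *Mt3*.

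Genes that handle the same metals, or answer to the same inducers, were taken as 6 lists, of which only a part was deep enough to test. *Mtf1*, the metal sensor, was below the count filter, at 17.0 and 19.7 CPM in pituicytes, 7.11 and 16.03 in IL cells and 0 and 50.8 in epithelial-like cells. *Slc30a1*, a zinc exporter that Mtf1 induces, was tested but had few UMIs, at 17.0 and 7.89 CPM in pituicytes, and was not called in any type. Of the zinc list 5 of 25 genes were tested, and 3 were called higher in pituicytes (20.9% of all genes). They were *Slc30a5*, a zinc transporter of the early secretory pathway, at 115 and 103 CPM (log2 fold change 2.09), *Slc39a7*, which releases zinc from the endoplasmic reticulum, at 59.4 and 107 CPM (1.37), and *Slc39a1*, a zinc importer of the plasma membrane, at 132 and 233 CPM (1.10). Their list median of 1.33 stood beside 0.59 over all genes. In epithelial-like cells 0 of these 5 were called, where 8.43% of all genes were higher and 0.222% lower, with a list median of -0.64 beside 0.45.

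Of the copper list 1 of 5 tested genes was called higher in pituicytes and in epithelial-like cells, where 20.9% and 8.43% of all genes were, *Sod1*, the copper and zinc superoxide dismutase, at 267.3 and 245 CPM and at 518 and 338 CPM. Against these same shares of all genes, 0 of 5 iron genes were called in pituicytes and 1 was called higher in epithelial-like cells, *Cp*, the ferroxidase ceruloplasmin, at 259 and 101 CPM there and 0 and 11.8 CPM in pituicytes. The list medians of iron genes were -0.05 in pituicytes and 0.02 in epithelial-like cells. Of the glucocorticoid list 0 of 10 tested genes were called in pituicytes (20.9% of all genes higher) and 2 were called higher in epithelial-like cells (8.43% of all genes), *Hsd11b1*, which regenerates active glucocorticoid, at 51.8 and 237 CPM and *Nfkbia*, an inhibitor of NF-kappaB, at 466 and 203 CPM.

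The antioxidant list had 3 of 10 tested genes called higher in pituicytes, where 20.9% of all genes were. *Gstm1*, a glutathione transferase, stood at 314 and 355 CPM there, *Gclm*, a subunit of the enzyme that begins glutathione synthesis, at 110 and 158 CPM and *Gpx1*, a glutathione peroxidase, at 229 and 343 CPM. In epithelial-like cells 3 of 10 were called higher as well, where 8.43% of all genes were, and *Gstm1* was again among them, at 2795 and 1455 CPM, with *Gclc*, the catalytic partner of *Gclm*, at 104 and 440 CPM and *Prdx1*, a peroxiredoxin, at 2330 and 1151 CPM. *Gstm1* was at 11.3 and 9.27 CPM in macrophage/microglia and 49.8 and 52.1 CPM in IL cells. IL cells had 0 of 10 antioxidant genes called higher, where 21.8% of all genes were.

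Immediate early genes are induced within minutes by many stimuli, tissue dissociation included. All 15 of the list were tested. In pituicytes 0 were called higher and 5 lower, where 1.37% of all genes were lower, among them *Atf3*, at 8.49 and 15.8 CPM, *Nr4a1*, at 17.0 and 31.6 CPM, *Zfp36*, at 34.0 and 55.2 CPM, and *Egr1*, at 187 and 178 CPM. In epithelial-like cells 10 of 15 were called higher, where 8.43% of all genes were, including *Atf3* at 155 and 592 CPM, *Fosb* at 311 and 694 CPM, *Junb* at 984 and 2741 CPM and *Klf4* at 259 and 220 CPM. In IL cells 10 were called higher and 3 lower, where 21.8% of all genes were higher and 2.79% lower. Macrophage/microglia also had 10 of 15 called higher, where 19.8% of all genes were. Their part in the metallothionein values was not tested. These types also differed in mitochondrial share, with medians of 17.2% and 12.5% in pituicytes, 10.4% and 9.37% in IL cells and 8.24% and 10.0% in epithelial-like cells. Across the thinned cells of a pool, correlations of the members with it lay between -0.151 and 0.194 in pituicytes and between -0.127 and 0.164 in IL cells, over 68 to 108 cells.

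The genes most like each member were ranked by the Pearson correlation of log2(CPM + 10) across the 14 sums of 7 types in 2 pools, which share types, pools and depth. For *Mt1* they were *Pdia6*, *Morf4l2*, *Cd63*, *Sdha* and *Tspan3*, with r from 0.864 to 0.888. For *Mt2* they were *Nfix*, *Clstn1*, *Tead1*, *Kazald1* and *Ccdc125*, with r from 0.892 to 0.951. *Nfix*, which encodes a nuclear factor I transcription factor, stood at 383 ± 16.8 CPM in pituicytes, 195 ± 13.8 in IL cells and 598 ± 32.5 in epithelial-like cells, the same order as *Mt2*, and at 0 in T-cell like cells. For *Mt3* they were *Ttyh1*, *Lrp6*, *P3h3*, *Clcn4* and *Gpm6a*, with r from 0.909 to 0.943. *Ttyh1*, a membrane protein gene of glia and neural progenitors, stood at 184 ± 7.88 CPM in pituicytes, 53.8 ± 19.4 in IL cells and 34.3 ± 24.6 in epithelial-like cells. *Gpm6a*, a neural membrane glycoprotein gene, stood at 116 ± 25.8, 30.5 ± 7.91 and 16.9 ± 23.9 CPM in the same types. Between the members r was 0.762 for *Mt1* and *Mt2*, 0.648 for *Mt1* and *Mt3* and 0.647 for *Mt2* and *Mt3*. Among the 4510 genes tested, *Mt2* came at rank 70 and *Mt3* at rank 312 in likeness to *Mt1*. The genes named above were picked for the highest r, so that their r cannot be set against that of the members.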

How the data were processed

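Raw UMI counts of each pool were deposited by the authors as a matrix of genes and barcodes, made with Cell Ranger 2.0.0 (1500 forced cells, a prebuilt mm10 reference). The submitters' processing notes also list STAR 2.5.1b and Seurat 2.3. They also deposited mean UMIs scaled to 10000 per cell for 11 clusters, pooled over both samples. The cells of the clusters were recovered here by non-negative least squares without the 3 genes. The 1500 barcodes with most UMIs were taken in each pool (1480737 and 1474311 UMIs), and cells were kept with over 1000 and under 10000 UMIs, over 400 and under 5000 genes and a mitochondrial share under 25%. The clusters were merged into 7 types. Mt1 and Mt2 were among the 900 most variable genes of a re-clustering, so that the types may not be independent of them.

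UMIs were summed per type and pool, giving 14 sums of 8491 to 281271 UMIs. Sums were compared by edgeR's quasi-likelihood test, run with edgeR 4.0.16 in R 4.3.3, using TMM factors, a minimum count of 5 and total of 15, cell type as the only term, 7 residual degrees of freedom and a common dispersion of 0.0378. P-values measure the spread between 2 pools over all types. The SE given with an edgeR fold is the absolute fold divided by the square root of the test's F statistic, not a separate estimate. Sums of 1 pool share their mice and their library and are paired by it, and the pool differences of 2 types correlated across genes at between -0.0346 and 0.148 over 21 pairs. The script was tested on simulated counts with known 2-fold and 4-fold changes over genes of all levels. In pituicytes against the other types it recovered 22% and 63% of them. There 14.1% of calls were false, and the median unchanged gene stood at a log2 fold change of 0.43. For pituicytes against IL cells it recovered 6% and 67%, with 2.67% of calls false. In epithelial-like cells against the other types it recovered 6% and 38%, with 4.35% false. Counting intervals are exact at 95% (Clopper-Pearson or Poisson), a 0 is given with a limit of 3 counts, and both cover counting error only. Doublets were called with Scrublet (scanpy 1.11.5), which marked 5 cells, and kept. Alternatives were library size alone, DESeq2 1.42.0, no low-count filter, the pool as a block, 1 pool left out, a mitochondrial share under 10%, re-clustering without the members (Seurat 5.3.0), free RNA subtracted, doublets left out and thinning to 1000 UMIs. Chosen after seeing the data were leaving out 1 epithelial-like cell, 1 macrophage/microglia cell, the 2 epithelial-like cells with over 100 Gh UMIs and the 2 VLMC with over 10 oligodendrocyte-marker UMIs.

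The members and lists were chosen with earlier results of these data known. Genes were named by rule: the 3 members, Mtf1 and Slc30a1, Pomc, up to 4 called genes per list with the largest fold in pituicytes and in epithelial-like cells, the 5 genes most like each member, and markers beside a value. Gm45774 and Mt4 were added as neighbours, and the single cells named were chosen after their values were seen. Promoter windows are from RefSeq and were found for all 3 genes. Protein sequences were not used here.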

Additional observations from a re-analysis of the deposited data

Results flagged for a closer look

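Signal in barcodes that no comparison above used was looked at because the limits on cells removed some large and some mitochondria-rich barcodes. In pool 1, 9 barcodes had 10000 or more UMIs and held *Mt1* at 3560 CPM, *Mt2* at 1565 CPM and *Mt3* at 218.5 CPM, where a count of 0 allows up to 21.1 CPM. In pool 2, 11 such barcodes held 2109, 1123 and 200.8 CPM of the same genes, with a limit of 18.8 CPM. These barcodes carried *Pomc* at 64930 and 42230 CPM and *Lcn2*, a marker of the epithelial-like cells, at 240 and 144 CPM. *Pomc* stood at 15750 CPM in the barcodes of pool 1 with 1 to 50 UMIs.

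The barcodes that failed only the mitochondrial limit also held all 3 genes. In pool 1, 56 of them stood at 1388 CPM of *Mt1*, 778 of *Mt2* and 236 of *Mt3*, with a limit of 29.5 CPM for a count of 0. In pool 2, 27 stood at 1509, 695 and 397 CPM, with a limit of 59.6 CPM. They carried the pituicyte marker *Scn7a* at 1654 and 854 CPM and *Pomc* at 16550 and 45810 CPM.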

How the results depend on the processing

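The members' calls in pituicytes and in epithelial-like cells against the other types stayed on the same side of the threshold in all tested alternatives, *Mt3* in epithelial-like cells remaining uncalled (0.17 to 1.46). Re-clustering gave no cluster named as epithelial-like cells, vascular endothelia or VLMC, and so no value for them. It left 42 cells in 1 unnamed cluster, 22 of them epithelial-like cells, and placed 16 cells in a cluster named as another type. Its contrasts against the other types therefore covered only pituicytes, IL cells, macrophage/microglia and T-cell like cells. *Mt3* of pituicytes over IL cells was called at 0.84 with library size alone and at 0.95 after re-clustering. The pool as a replicate block gave 2.54, 2.98 and 4.37 for *Mt1*, *Mt2* and *Mt3* in pituicytes, 3.03, 4.43 and 0.61 in epithelial-like cells and 0.60, 0.60 and 0.74 for pituicytes over IL cells, and changed 1 call of the 12 comparisons, *Mt1* of IL cells over macrophage/microglia, called at 0.88.

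With 1 pool left out, values without a test, the range was 2.53 to 3.31 for *Mt1*, 3.28 to 3.79 for *Mt2* and 4.91 to 5.34 for *Mt3* in pituicytes, 1.86 to 4.41, 4.80 to 4.91 and 0.51 to 1.32 in epithelial-like cells, and 0.30 to 0.91, 0.53 to 0.58 and 0.29 to 1.16 for pituicytes over IL cells. *Mt1* of IL cells over epithelial-like cells, called at -1.08, was -1.85 without pool 1 and 0.28 without pool 2. Over the 7 comparisons of a type with the others and the 5 of pairs of types given above, 417 alternatives with a test were run for the members, of which 388 kept direction and call, 13 lost a call, 12 gained one and 4 changed sign, none of which was called. The changes of sign were *Mt2* in macrophage/microglia, at 0.26 under 10% mitochondrial share and 0.55 without the 2 VLMC with oligodendrocyte markers, and *Mt1* in VLMC, at 0.10 with library size alone and 0.028 with DESeq2. Leaving out those 2 VLMC took *Mt2* of VLMC, which are among the other types, from 1 UMI to 0 in each pool. The cause of the changes of sign was not tested. Vascular endothelia and VLMC, with sums of at most 15098 UMIs, limit what can be said of low members there.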
